A study of Mus musculus with 8 samples.

Results

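Fibronectin, tenascin C, versican and the matricellular proteins are secreted matrix glycoproteins, and 9 genes that encode them were followed in mouse lung fibroblasts given TWEAK. The genes were chosen by name, with earlier results of these data known. They are Fn1, Tnc, Vcan, Sparc, Postn, Tgfbi, Thbs1, Thbs2 and Spp1. Each matched 1 row among the 52110 rows with a gene symbol. All 9 passed the filter on low counts, which left 17360 genes. The cells were wild-type primary fibroblasts from mouse lung, kept in medium with fetal bovine serum. They were left untreated or received TWEAK, a TNF-family cytokine added as recombinant protein, at 10, 30 or 100 ng/ml, and RNA was collected after 48 hours. Each of the 4 groups held 2 libraries. The labels give neither the number of animals or cultures nor their age or sex, so p-values measure the spread between 2 libraries that may be technical repeats.

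Fibronectin is assembled by cells into fibrils that other matrix proteins bind, and versican is a large proteoglycan that binds hyaluronan in loose, provisional matrix. Matricellular proteins such as tenascin C, SPARC, periostin, the thrombospondins and osteopontin are placed in the matrix but act mostly as modulators of adhesion, matrix assembly and growth factor activity. In lung they are known for their abundance in development, wound repair and fibrosis. TWEAK binds the receptor Fn14, encoded by Tnfrsf12a, which signals to NF-kB.

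Total counts per library ranged from 37345575 to 50896445. On the first principal component of log2 CPM, which held 49.7% of the variance, untreated libraries had scores of -67.56 and -66.54. The scores were 61.44 and 62.57 for the dose of 10 ng/ml, 48.66 and 35.34 for 30 ng/ml, and -36.19 and -37.71 for 100 ng/ml. The libraries of the highest labelled dose therefore lay nearer to untreated cells than those of the lower doses, and results are given with and without them. Each of 9 fibroblast markers was tested, with a summed level of 11143 to 11263 CPM (counts scaled to library size) at 10 ng/ml and 21320 to 21627 CPM in untreated cells. The lower sum came mostly from collagens, which are also counted as assembly partners here (Col3a1 averaged 1910 CPM at 10 ng/ml and 8910 CPM in untreated cells). Pdgfrb, Lum and Thy1 were lower too, with Pdgfrb at 446 CPM at 10 ng/ml and 808 CPM in untreated cells. Pdgfra, Dcn and Vim were higher. Pdgfra averaged 1463 CPM at 10 ng/ml and 1262 CPM in untreated cells. Dcn averaged 1500 CPM at 10 ng/ml and 1132 CPM in untreated cells. Vim averaged 1234 CPM at 10 ng/ml and 855 CPM in untreated cells, so the markers did not move one way. The epithelial marker Epcam had 0 counts in every library, and the summed level of 8 epithelial markers stayed at or below 2.22 CPM. The 7 endothelial markers summed to between 6.28 and 7.81 CPM, though single markers shifted within that sum. Cdh5 averaged 4.04 CPM at 10 ng/ml and 0.150 CPM in untreated cells. Tek went the other way, at 1.46 CPM at 10 ng/ml and 4.73 CPM in untreated cells. The 5 mesothelial markers summed to 12.9 to 13.4 CPM in untreated cells, 4.53 to 6.20 at 10 ng/ml, 4.29 to 5.31 at 30 ng/ml and 8.67 to 11.2 at 100 ng/ml, so they were lower at the doses where most of the 9 genes were lower. The 7 markers of smooth muscle and pericytes summed to 166 to 188 CPM at 10 ng/ml and 129 to 147 CPM in untreated cells. Des supplied most of the higher sum, at 115 CPM at 10 ng/ml and 31.5 CPM in untreated cells. Rgs5 and Cspg4 were higher too, at 4.87 and 2.63 CPM at 10 ng/ml, against 0.561 and 0.750 CPM in untreated cells. The contractile genes Myh11, Cnn1 and Actg2 were lower, at 13.0, 6.49 and 19.5 CPM at 10 ng/ml, against 26.8, 22.1 and 38.5 CPM in untreated cells. Notch3 averaged 15.6 CPM at 10 ng/ml and 17.7 CPM in untreated cells. Whether such shifts in marker levels have a part in the results was not tested, and in bulk RNA fewer cells of a type and less RNA per cell cannot be told apart.

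At 10 ng/ml TWEAK, 7 of the 9 genes fell and 2 rose. Fn1, Tnc, Vcan, Sparc, Postn, Thbs1 and Thbs2 were lower, and Spp1 and Tgfbi were higher. Among all genes tested at this dose, 14.2% were called lower and 15.0% higher. Such shares are a description and not a test, as the 9 genes were chosen with earlier results known. At 30 ng/ml the same split was found, with 7 lower and 2 higher, against 10.7% lower and 12.6% higher among all genes. The highest dose gave 1 call, Spp1 as higher, and 0 lower, against 0.812% higher and 0.305% lower among all genes. With an unadjusted p under 0.05, edgeR had 4 of the 9 there, and 2017 of all 17360 genes. DESeq2 called Postn besides Spp1 at that dose, and 580 of the 17360 genes. A gene is called here when its Benjamini-Hochberg adjusted p over all genes tested is at most 0.05 in edgeR's quasi-likelihood test. The median log2 change of the 9 genes was -0.76 at 10 ng/ml, -0.62 at 30 ng/ml and -0.08 at 100 ng/ml, and that of all genes tested was 0.01, 0.01 and 0.00. Leaving both 100 ng/ml libraries out of the fit gave the same counts at 10 and 30 ng/ml.

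**Figure D1:**
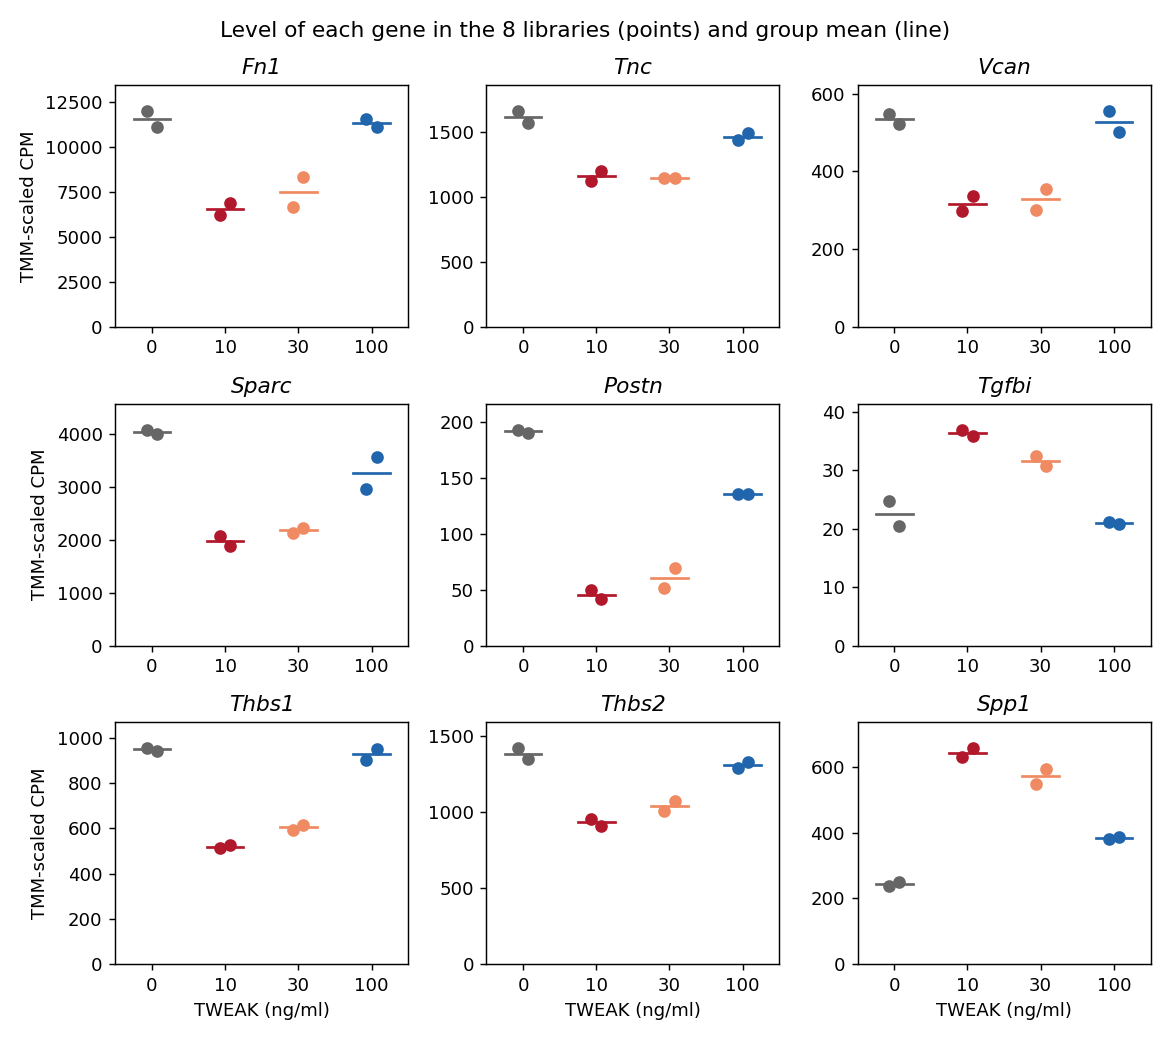
Level of each gene in TMM-scaled CPM (y axis, from 0) against the TWEAK dose in ng/ml (x axis). Points are the 8 libraries and lines the means of 2 libraries; at 10 and 30 ng/ml 7 genes lie below and Tgfbi and Spp1 above both untreated libraries, and at 100 ng/ml Fn1, Vcan, Tgfbi and Thbs1 overlap them.

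The genes differed widely in level. Per kilobase of annotated exon, with CPM scaled by TMM, Sparc stood at 1068 ± 14.2 and Fn1 at 989 ± 53.4 CPM per kilobase in untreated cells (SD, n = 2). These levels held ranks 32 and 34 of 47640 genes with an exon length. Tnc at 207 ± 8.56, Thbs2 at 198 ± 7.09, Thbs1 at 156 ± 1.32 and Spp1 at 148 ± 4.58 CPM per kilobase formed a middle group, followed by Vcan at 37.0 ± 1.18, Postn at 22.0 ± 0.293 and Tgfbi at 5.99 ± 0.822. The libraries of Tnc and Thbs2 overlapped, so that their order is not set, while those of the other neighbours did not. At 10 ng/ml Spp1 stood at 390 ± 11.7 CPM per kilobase, above Tnc at 149 ± 6.55, and Tgfbi at 9.67 ± 0.222 stood above Postn at 5.22 ± 0.645, both the reverse of the order in untreated cells. Together the 9 genes took 2.08% and 1.97% of the counts with a symbol in untreated libraries, 1.20% and 1.26% at 10 ng/ml, 1.26% and 1.45% at 30 ng/ml, and 1.94% and 1.93% at 100 ng/ml. Fn1 alone supplied between 52.3% and 60.1% of that share in every library.

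**Figure D2:**
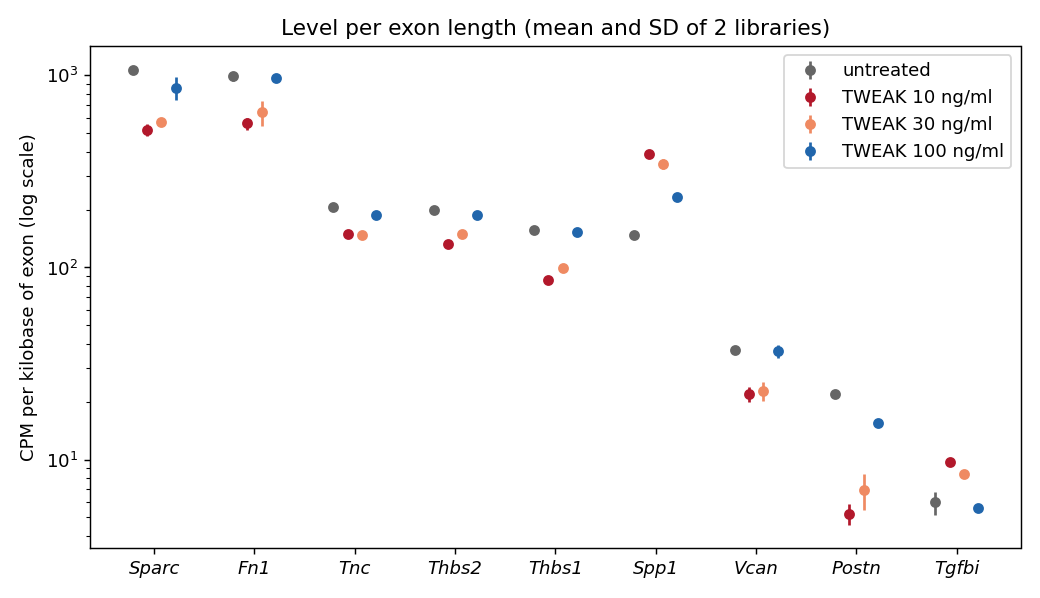
Level of each gene per kilobase of annotated exon (y axis, log scale, CPM per kilobase) in the 4 groups, as mean and SD of 2 libraries, ordered by the untreated level. Sparc and Fn1 lead in all groups, and Spp1 stands at 390 at 10 ng/ml against 148 in untreated cells.

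Fn1 encodes fibronectin, the adhesive glycoprotein whose RGD site is bound by integrins. Its level was 11992 and 11110 CPM in untreated cells, 6237 and 6895 at 10 ng/ml, 6680 and 8308 at 30 ng/ml, and 11545 and 11082 at 100 ng/ml. Both lower doses lay below untreated cells without overlap, and the 100 ng/ml libraries overlapped them. The log2 change was -0.81 ± 0.10 (SE) at 10 ng/ml (edgeR adjusted p = 0.000538) and -0.62 ± 0.10 at 30 ng/ml (edgeR adjusted p = 0.00270). The change at 100 ng/ml was -0.03, with an approximate 95% interval of -0.25 to 0.19, which spans 0.

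Tnc encodes tenascin C, a hexameric glycoprotein that modulates adhesion to fibronectin. Its level was 1659 and 1565 CPM in untreated cells, 1123 and 1195 at 10 ng/ml, 1143 and 1146 at 30 ng/ml, and 1432 and 1486 at 100 ng/ml. All TWEAK libraries lay below both untreated ones, and those of 10 and 30 ng/ml overlapped each other. The log2 change was -0.48 ± 0.05 at 10 ng/ml and -0.49 ± 0.05 at 30 ng/ml (edgeR adjusted p = 0.000301 and 0.000329), and -0.14 ± 0.05 at 100 ng/ml, which was not called (edgeR adjusted p = 0.317). Tnc was the least changed of the 7 genes that fell at 10 ng/ml.

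Vcan encodes versican, which links hyaluronan to other matrix proteins. It stood at 547 and 523 CPM in untreated cells, 297 and 336 at 10 ng/ml, 301 and 355 at 30 ng/ml, and 556 and 501 at 100 ng/ml. The lower doses did not overlap untreated cells, and the highest did. The log2 change was -0.76 ± 0.10 at 10 ng/ml (edgeR adjusted p = 0.000856) and -0.70 ± 0.10 at 30 ng/ml (edgeR adjusted p = 0.00162). The change at 100 ng/ml was -0.02, with a 95% interval of -0.25 to 0.21.

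Sparc encodes SPARC, a collagen-binding protein that regulates collagen assembly. Its level was 4083 and 4007 CPM in untreated cells, 2074 and 1876 at 10 ng/ml, 2136 and 2222 at 30 ng/ml, and 2959 and 3568 at 100 ng/ml. No TWEAK library reached an untreated one, and the 2 libraries of 100 ng/ml were the least alike. The log2 change was -1.03 ± 0.09 at 10 ng/ml and -0.89 ± 0.09 at 30 ng/ml (edgeR adjusted p = 8.20e-05 and 0.000243). The change at 100 ng/ml was -0.31 ± 0.09, not called in all libraries (edgeR adjusted p = 0.179) but called without TWEAK100 replicate 2 (log2 change -0.45, edgeR adjusted p = 0.0450).

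Postn and Tgfbi encode periostin and TGFBI, a related pair of secreted proteins built from fasciclin domains, and they changed in opposite directions. Postn stood at 193 and 190 CPM in untreated cells, 49.4 and 41.5 at 10 ng/ml, 51.4 and 69.4 at 30 ng/ml, and 135 and 135 at 100 ng/ml. Every TWEAK library was lower than both untreated ones. Its log2 change of -2.07 ± 0.15 at 10 ng/ml was the largest fall of the 9 genes, to 23.8% of the untreated level (edgeR adjusted p = 3.46e-05). At 30 ng/ml the change was -1.66 ± 0.14 (edgeR adjusted p = 0.000138). For 100 ng/ml it was -0.50 ± 0.14, with a 95% interval of -0.82 to -0.18, and the gene was not called (edgeR adjusted p = 0.184). DESeq2 called that difference (adjusted p = 0.0106), as did the fit of the compared groups alone (edgeR adjusted p = 0.0329).

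Tgfbi, the lowest of the 9 genes in untreated cells per exon length, stood at 24.8 and 20.4 CPM there, 37.0 and 35.9 at 10 ng/ml, 32.5 and 30.7 at 30 ng/ml, and 21.2 and 20.8 at 100 ng/ml. The lower doses lay above both untreated libraries, and the highest dose lay between them. The log2 change was 0.69 ± 0.11 at 10 ng/ml (edgeR adjusted p = 0.00213) and 0.48 ± 0.11 at 30 ng/ml (edgeR adjusted p = 0.0145). The call at 30 ng/ml was lost without untreated replicate 2 (log2 change 0.35, edgeR adjusted p = 0.0924) and without TWEAK30 replicate 1 (0.44, edgeR adjusted p = 0.0827). For 100 ng/ml the change was -0.10, with a 95% interval of -0.36 to 0.15.

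Thbs1 and Thbs2 encode thrombospondin 1, known as an activator of latent TGF-beta and an inhibitor of angiogenesis, and its close relative thrombospondin 2. Thbs1 stood at 954 and 943 CPM in untreated cells, 512 and 527 at 10 ng/ml, 595 and 617 at 30 ng/ml, and 903 and 950 at 100 ng/ml. Its replicates lay close together, and the lower doses were far below the rest. The log2 change was -0.87 ± 0.05 at 10 ng/ml and -0.65 ± 0.05 at 30 ng/ml (edgeR adjusted p = 1.46e-05 and 7.93e-05), and -0.03 at 100 ng/ml with a 95% interval of -0.15 to 0.08. Thbs2 stood at 1421 and 1351 CPM in untreated cells, 956 and 911 at 10 ng/ml, 1009 and 1072 at 30 ng/ml, and 1289 and 1333 at 100 ng/ml. Its log2 change was -0.57 ± 0.05 at 10 ng/ml and -0.41 ± 0.05 at 30 ng/ml (edgeR adjusted p = 0.000142 and 0.000991). Both Thbs2 libraries at 100 ng/ml were below the untreated ones, but the change of -0.08 ± 0.05 was not called (edgeR adjusted p = 0.621). Whether the 2 thrombospondin genes fell by different amounts was not tested.

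Spp1 encodes osteopontin, an integrin and CD44 ligand made by fibroblasts, macrophages and bone cells. It was the single gene of the 9 called at all 3 doses. Its level was 238 and 249 CPM in untreated cells, 630 and 657 at 10 ng/ml, 548 and 595 at 30 ng/ml, and 381 and 387 at 100 ng/ml. No library of any TWEAK group overlapped an untreated one. The level at 10 ng/ml was 2.64 times the untreated one, a log2 change of 1.40 ± 0.06 (edgeR adjusted p = 4.91e-06). At 30 ng/ml the log2 change was 1.23 ± 0.06 (edgeR adjusted p = 1.32e-05), and at 100 ng/ml it was 0.66 ± 0.06 (edgeR adjusted p = 0.00293). The call at 100 ng/ml was kept under the 17 other settings that gave a p, with edgeR, DESeq2 or limma-voom adjusted p no higher than 0.0332.

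Macrophages are a known source of osteopontin, and the 10 macrophage markers summed to 63.8 to 72.5 CPM at 10 ng/ml, 55.3 to 68.2 at 30 ng/ml, 49.5 to 53.1 at 100 ng/ml and 34.1 to 38.0 CPM in untreated cells. Cd14 was the highest of them, at 41.5 CPM at 10 ng/ml and 17.8 CPM in untreated cells. The leukocyte marker Ptprc had 0 counts in both libraries at 10 ng/ml, against 3 and 0 counts in untreated cells. Adgre1 had 0 and 9 counts at 10 ng/ml, against 17 and 0 in untreated cells, and Csf1r averaged 1.67 CPM at 10 ng/ml and 1.55 CPM in untreated cells. Cd68 stood at 8.83 CPM at 10 ng/ml and 2.06 CPM in untreated cells, and Lyz2 at 14.2 CPM at 10 ng/ml and 9.53 CPM in untreated cells. Mertk went the other way, at 0.930 CPM at 10 ng/ml and 4.70 CPM in untreated cells. Mrc1, Itgam and Marco each averaged below 0.5 CPM in both groups. Ptprc and Adgre1 were thus at or near 0 where Spp1 was highest, while Cd14, Cd68 and Lyz2 were higher there and Mertk lower, and the part of these markers in the Spp1 result was not tested.

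**Figure D3:**
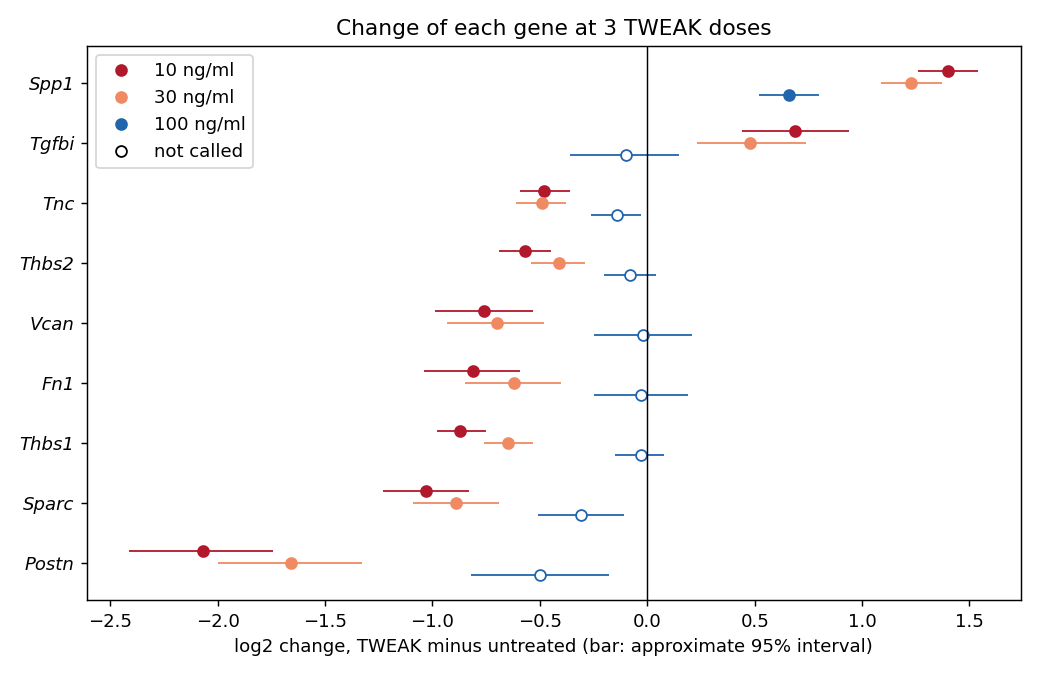
Log2 change of each gene, TWEAK minus untreated (x axis), at 3 doses, ordered by the change at 10 ng/ml. Bars are approximate 95% intervals, filled points were called and open points were not; every gene is filled at 10 and 30 ng/ml, and Spp1 alone is filled at 100 ng/ml.

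All 9 genes differed between 100 ng/ml and each lower dose. At 100 against 10 ng/ml, the 7 genes that TWEAK lowered at 10 ng/ml were higher and Spp1 and Tgfbi lower, all 9 called, while 10.7% of all genes were called higher and 11.2% lower. At 100 against 30 ng/ml the count was again 7 higher and 2 lower, against 7.15% higher and 8.04% lower among all genes. Postn differed most, at 135 ± 0.146 CPM at 100 ng/ml against 45.4 ± 5.61 CPM at 10 ng/ml (log2 change 1.57 ± 0.14, edgeR adjusted p = 0.000224). Spp1 averaged 384 ± 4.39 CPM at 100 ng/ml and 643 ± 19.2 CPM at 10 ng/ml (log2 change -0.74 ± 0.06, edgeR adjusted p = 0.000133). The call on Tgfbi at 100 against 30 ng/ml was lost without TWEAK30 replicate 1 (edgeR adjusted p = 0.0621), TWEAK100 replicate 1 (0.0530) or TWEAK100 replicate 2 (0.0579). These comparisons share libraries with those against untreated cells, and they are not independent of them.

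At 30 against 10 ng/ml none of the 9 genes was called by edgeR, DESeq2 or limma-voom. Over all genes 0% passed in edgeR, and limma-voom called 0 genes and DESeq2 117. With an unadjusted p under 0.05, edgeR had 4 of the 9 genes, namely Postn, Thbs1, Thbs2 and Spp1, and 1208 of all 17360 genes. The largest difference was that of Postn, a log2 change of 0.41 with a 95% interval of 0.08 to 0.74, and that of Thbs1 was 0.22 with an interval of 0.11 to 0.34. For Tnc, Vcan and Fn1 the libraries of these doses overlapped. In the test for any difference among the 4 groups, all 9 genes passed, with edgeR adjusted p from 1.58e-05 for Spp1 to 0.00257 for Tgfbi, and 23.7% of all genes did.

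Genes that work with the 9 were read from the same fit as 5 lists. The lists were also chosen with earlier results of these data known, so their counts describe and do not test. Among 28 tested genes of other matricellular and related glycoproteins, 15 fell and 5 rose at 10 ng/ml, with a median log2 change of -0.73. The rises numbered 3 without untreated replicate 1 or TWEAK10 replicate 1. Sparcl1, a relative of Sparc, stood at 554 and 569 CPM at 10 ng/ml, against 2676 and 2715 CPM in untreated cells, a log2 change of -2.26 ± 0.10 (edgeR adjusted p = 4.92e-06). Smoc2, another gene of the SPARC family, fell by 2.88 ± 0.15 on the log2 scale and the tenascin gene Tnxb by 1.71 ± 0.11. Smoc1, of the SPARC family too, rose at 10 ng/ml by 0.45 ± 0.07 (edgeR adjusted p = 0.00260). Nov, Ecm1, Matn2 and Hapln3 were the other genes of the list called higher there. The fibulin genes Fbln5 and Efemp1 fell by 1.57 ± 0.09 and 1.71 ± 0.11. At 30 ng/ml 15 of the 28 fell and 4 rose, where 10.7% of all genes were lower and 12.6% higher. Of the 28, edgeR called Sparcl1 alone at 100 ng/ml, where DESeq2 called 3 higher and 3 lower and limma-voom 2 lower. Over all 17360 genes, DESeq2 called 580 and limma-voom 192 at that dose. Sparcl1 stood at 1828 CPM at 100 ng/ml, against 2695 CPM in untreated cells (log2 change -0.56, edgeR adjusted p = 0.0415). That call was lost with no filter on low counts (edgeR adjusted p = 0.0569), and without either untreated library (adjusted p up to 0.185), either TWEAK10 library (up to 0.0776) or either TWEAK100 library (up to 0.205), and without either TWEAK30 library 3 of the 28 genes were called lower.

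Of 13 assembly partners, the collagens and other proteins that fibronectin and SPARC bind or that process collagen, 10 fell and 1 rose at 10 ng/ml (2 rose without untreated replicate 1), with a median log2 change of -0.54. Col3a1 stood at 1935 and 1885 CPM at 10 ng/ml, against 8952 and 8867 CPM in untreated cells (log2 change -2.22 ± 0.13, edgeR adjusted p = 1.54e-05). Lox, a crosslinking enzyme of collagen and elastin, fell by 2.09 ± 0.12, Col1a1 by 1.35 ± 0.08, Col6a2 by 1.32 ± 0.08 and Col1a2 by 0.52 ± 0.05 on the log2 scale. At 30 ng/ml 10 of the 13 fell, against 10.7% of all genes, and the median was -0.41, while at 100 ng/ml the median was -0.11. The falls at 30 ng/ml numbered 9 with library totals, with no filter on low counts, with the replicate number as a block and after thinning to the lowest total.

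The list of 23 tested receptors and binding partners also held the hyaluronan synthase genes Has1, Has2 and Has3. Of the 23 genes, 8 rose, Has2 among them, and 4 fell at 10 ng/ml, with a median log2 change of 0.10. Cd44, a receptor of hyaluronan and osteopontin, stood at 713 and 796 CPM at 10 ng/ml, against 133 and 143 CPM in untreated cells (log2 change 2.45 ± 0.20, edgeR adjusted p = 6.51e-05). The fibronectin receptor subunit Itga5 rose by 0.57 ± 0.06, while Itga8, whose integrin binds fibronectin, osteopontin and tenascin C, fell by 3.08 ± 0.08 and Itgb5 by 0.73 ± 0.07 on the log2 scale. The integrin genes Itgav, Itgb3, Itgb8 and Itga3 were called higher too, with log2 changes of 1.99 ± 0.32, 1.34 ± 0.15, 1.32 ± 0.18 and 0.43 ± 0.12. Itgb1 was called lower (-0.22 ± 0.05), and Itga4 and Itga9 were not called. Stab1, a scavenger receptor known to take up SPARC, rose as well, at 5.72 and 6.29 CPM at 10 ng/ml, against 0.180 and 0.201 CPM in untreated cells. At 100 ng/ml Itga8 was lower (log2 change -0.80, edgeR adjusted p = 0.00342) and Stab1 higher (3.08, edgeR adjusted p = 0.00508), though not by limma-voom for Stab1 (adjusted p = 0.0817) or in the fit of the compared groups alone (edgeR adjusted p = 0.0631).

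Among 15 proteases known to cut these proteins, 6 rose and 6 fell at 10 ng/ml, with a median log2 change of -0.40, and the rises numbered 2 without untreated replicate 1 or TWEAK10 replicate 2. Adamts1, Adamts5 and Adamts15, which are among the enzymes that cut versican, had log2 changes of -1.40 ± 0.10, -1.48 ± 0.08 and -4.29 ± 0.27. The other ADAMTS genes of the list did not all fall. Adamts4 was higher (log2 change 0.33 ± 0.08, edgeR adjusted p = 0.0196), Adamts9 lower (-0.40 ± 0.11, edgeR adjusted p = 0.0240), and Adamts20 was not called. Mmp2 fell by 1.09 ± 0.09, and Mmp9, which cuts osteopontin among other substrates, stood at 337 and 380 CPM at 10 ng/ml, against 0.180 and 0.140 CPM in untreated cells. Mmp9 was also called at 100 ng/ml, at 12.5 ± 0.982 CPM (edgeR adjusted p = 0.000120), though not by limma-voom (adjusted p = 0.0894). Of 13 genes of the TGF-beta axis, which induces fibronectin, periostin and TGFBI in many cells, 6 fell and 2 rose at 10 ng/ml, with a median log2 change of -0.42. The ligand gene Tgfb1 rose by 1.45 ± 0.07, while Tgfb3 fell by 0.97 ± 0.09, the receptors Tgfbr2 and Tgfbr3 by 1.39 ± 0.08 and 1.21 ± 0.09, and the latency protein gene Ltbp1 by 1.01 ± 0.06 on the log2 scale. For the lists of receptors, proteases and the TGF-beta axis, as for the others, the counts at 10 ng/ml stand beside 15.0% of all genes called higher and 14.2% lower. The TWEAK receptor gene Tnfrsf12a stood at 33.3 and 32.3 CPM at 10 ng/ml, against 18.6 and 19.7 CPM in untreated cells.

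**Figure D4:**
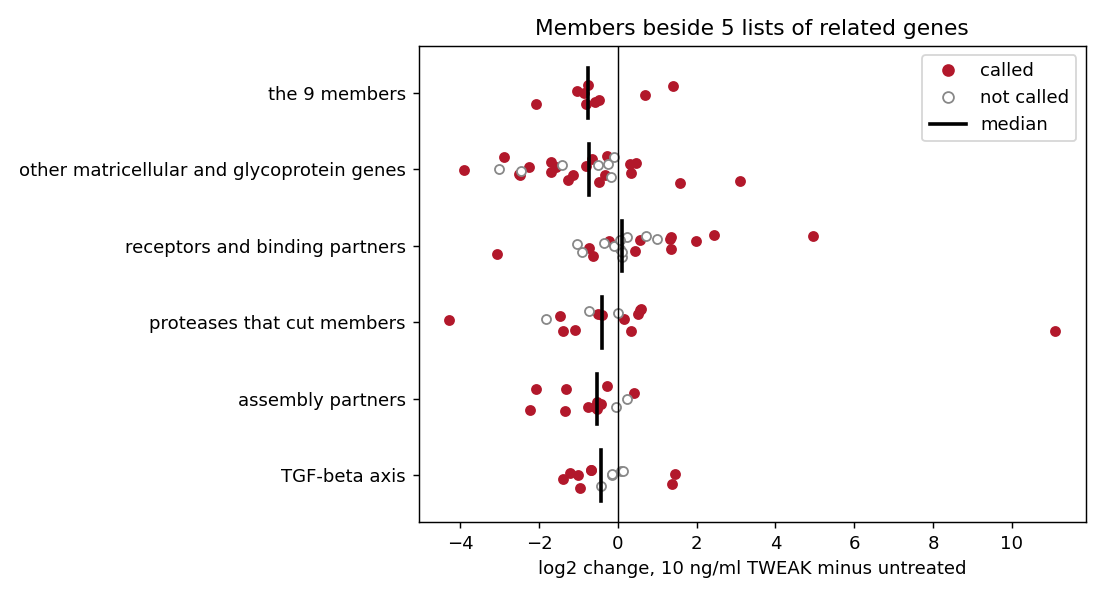
Log2 change at 10 ng/ml TWEAK minus untreated (x axis) for the 9 genes and for 5 lists of related genes, with called genes filled and list medians as black bars. The medians of the 9 genes (-0.76), the other matricellular genes (-0.73), the assembly partners (-0.54), the TGF-beta axis (-0.42) and the proteases (-0.40) lie below 0. That of the receptors, binding partners and hyaluronan synthases (0.10) lies just above it. Thbs4, with 0 counts in untreated cells, is not drawn.

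On the mm10 assembly with GENCODE M21, counted from 1, the genes lie apart on the genome. Fn1 spans 71585520 to 71653200 on chromosome 1, Tnc 63959785 to 64047015 on chromosome 4, and Sparc 55394500 to 55423183 on chromosome 11. Postn spans 54361109 to 54391037 on chromosome 3, Spp1 104435118 to 104441050 on chromosome 5, Thbs1 118111876 to 118127133 on chromosome 2 and Thbs2 14665500 to 14694235 on chromosome 17. Tgfbi (56609523 to 56639562) and Vcan (89655312 to 89742509) are both on chromosome 13. Exons of Fn1, Tnc, Thbs1 and Spp1 overlap an exon of another annotated gene, so reads may have been assigned to either, but none of those partners had more than 110 counts in a library. Exons of Tnxb, Ecm1, Matn2, Itga4, Itga8, Itgav, Stab1, Has2, Has3, Col3a1, Lox, Tgfb3, Tgfbr3, Adamts4 and Adamts9 also overlap those of other genes. The same uncertainty holds for these genes.

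RefSeq start windows on GRCm38.p6 were at hand for 7 of the 9 genes, Tnc, Vcan, Sparc, Postn, Tgfbi, Thbs2 and Spp1. The 220 bases just before the start are shown for Postn, the largest fall, for its relative Tgfbi, which rose, and for Spp1, the largest rise, each on the gene's strand with matches to a TATA box (TATAAA, either strand) in capitals. The Postn window is chr3:54360887-54361106 on the + strand, the Tgfbi window chr13:56609366-56609585 on the + strand and the Spp1 window chr5:104434891-104435110 on the + strand.
Postn: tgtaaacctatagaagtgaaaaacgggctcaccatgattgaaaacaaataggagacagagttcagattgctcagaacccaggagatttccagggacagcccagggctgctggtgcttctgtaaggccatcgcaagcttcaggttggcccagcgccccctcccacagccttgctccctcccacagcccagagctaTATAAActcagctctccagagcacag
Tgfbi: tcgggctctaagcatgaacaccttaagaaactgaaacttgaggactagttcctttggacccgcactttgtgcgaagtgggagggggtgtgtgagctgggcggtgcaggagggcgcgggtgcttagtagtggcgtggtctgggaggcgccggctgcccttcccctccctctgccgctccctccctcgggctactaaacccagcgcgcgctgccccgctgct
Spp1: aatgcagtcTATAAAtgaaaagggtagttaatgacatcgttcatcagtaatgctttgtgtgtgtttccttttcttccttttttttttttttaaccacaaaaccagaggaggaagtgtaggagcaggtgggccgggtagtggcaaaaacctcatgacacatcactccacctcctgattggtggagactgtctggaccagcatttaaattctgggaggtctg

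The TATA box match of Postn lies 26 to 21 bases before the start and that of Spp1 211 to 206 bases before it, and Tgfbi has none within 250 bases. Tnc and Thbs2, both lower at 10 and 30 ng/ml, have a match 126 to 121 bases before the start. An AP-1 site (TGANTCA, either strand) and a kappaB-like site (GGANNTTCC, either strand) were matched in none of the 7 windows of 250 bases. Over all 32851 such windows, 12.4% held the TATA box letters, 6.75% the AP-1 letters and 3.59% the kappaB-like letters. A match is a description of the letters, and no match says only that these letters are not in the window.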

How the data were processed

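RNA sequencing was done on 8 libraries of primary mouse lung fibroblasts, 2 in each of 4 groups taken from the sample titles. The deposited table holds raw counts per gene, not normalized by the authors. The submitters' processing notes name the mm10 build, STAR and StringTie. Which program counted reads, with which annotation and strand setting, is not given in the sources used here. Of 55335 rows, 3225 had no symbol and held 0.168% to 0.178% of a library's counts; they were left out of library sizes and tests.

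The main test was edgeR 4.0.16 (R 4.3.3) with its quasi-likelihood F statistic, after filterByExpr and TMM scaling, in 1 fit of all 8 libraries with 4 residual and 3.77 prior degrees of freedom, over 6 contrasts. Two-sided p-values were Benjamini-Hochberg adjusted over 17360 genes. Standard errors and 95% intervals were derived from the F statistic and are approximate. DESeq2 1.42.0 and limma-voom 3.58.1 served as alternatives, and the fit was tested on simulated counts. Replicate libraries were not duplicates: chi-square divided by its degrees of freedom was 22.7 to 27.6 between them. Intervals cover the spread between libraries and not between animals. CPM per kilobase used union exon lengths of GENCODE M21.

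The 9 genes and all lists were chosen with earlier results of these data known. From each list, the 5 genes with the smallest p at 10 ng/ml are named, with Tnfsf12 and Tnfrsf12a as ligand and receptor. Besides them, Smoc1, Nov, Ecm1, Matn2, Hapln3, Has1, Has2, Has3, Adamts4, Adamts9 and Adamts20 are named, with the other tested integrin genes.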

Additional observations from a re-analysis of the deposited data

How the results depend on the processing

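All 9 genes were called at 10 and at 30 ng/ml under DESeq2, limma-voom, both other scalings, both other filters, the fit of the compared groups alone, without both 100 ng/ml libraries and after thinning to the lowest total; the last 2 alternatives were chosen after seeing the data. Leaving out each library gave 9 to 9 calls at 10 ng/ml, 8 to 9 at 30 ng/ml, 1 to 2 at 100 ng/ml, 0 to 0 at 30 against 10 ng/ml, 9 to 9 at 100 against 10 ng/ml, 8 to 9 at 100 against 30 ng/ml and 9 to 9 for any difference. Requiring a log2 change of at least 1 left 3, 2 and 0 of the 9 genes at 10, 30 and 100 ng/ml, and 1 gene at 100 against 10 and against 30 ng/ml. How many of all genes met that rule was not counted, so these counts have no background. Over all 17360 genes, DESeq2 called 5271 and 4252 at 10 and 30 ng/ml, and limma-voom 5235 and 4281. At 100 ng/ml DESeq2 and the fit of the compared groups alone each called 2 of the 9 genes, adding Postn to Spp1. Over all genes these called 580 of 17360 and 180 of 16487. With the replicate number as a block the calls were 9, 9 and 1 at 10, 30 and 100 ng/ml, 0 at 30 against 10 and 9 in both other comparisons. Deviations of same-numbered libraries correlated at only -0.05 to 0.03 across genes, which gives no sign of pairing. The correlation weighs genes with few counts like any other, so it cannot exclude pairing. The sign turned only where no call was made. At 100 ng/ml it did for Vcan with library totals (0.00). Leaving out each library gave log2 changes at 100 ng/ml from -0.09 to 0.02 for Fn1, -0.24 to 0.04 for Tgfbi, -0.10 to 0.05 for Vcan and -0.07 to 0.00 for Thbs1, and at 30 against 10 ng/ml from -0.07 to 0.17 for Vcan and -0.06 to 0.03 for Tnc. The cause was not tested. Of 945 values of the 9 genes under alternatives, 928 kept direction and side of the threshold.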

Other observations

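Among the 9 genes, the 7 that fell at 10 ng/ml varied together over the 8 libraries, with Pearson r of log2 CPM from 0.905 (Vcan and Sparc) to 0.990 (Postn and Thbs2). Tgfbi and Spp1 had r of 0.820 with each other. The points share their groups and library scaling, so these values describe the group differences. Among 11157 genes averaging 5 CPM or more, the gene most like Fn1 was Acot11 (r = 0.9976), for Tnc it was Kifap3 (0.9949), for Vcan Inhba (0.9957), for Sparc Capn2 (0.9962), for Postn Mfap2 (0.9992), for Tgfbi Fgfr1 (0.9955), for Thbs1 Pkia (0.9981), for Thbs2 Cdr2 (0.9977) and for Spp1 Minpp1 (0.9983). Between 207 genes for Tgfbi and 897 for Postn reached an r of 0.95, so many genes share each pattern.

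The gene of the ligand, Tnfsf12, stood at 25.6 and 23.6 CPM at 10 ng/ml, against 33.4 and 33.6 CPM in untreated cells (log2 change -0.44, edgeR adjusted p = 0.0171). Leaving out 1 library ended that call in 3 cases, with adjusted p of 0.0726 (untreated replicate 1), 0.0739 (untreated replicate 2) and 0.0901 (TWEAK10 replicate 2). An exon of another gene overlaps Tnfsf12, so its counts are uncertain.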
